A study of Saccharomyces cerevisiae with 6 samples.

Results

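The 7 histidine synthesis genes, *HIS1* to *HIS7*, were taken from a table of 7122 genes by gene name, and all 7 were found. They were compared between 3 *ths1-C268A* and 3 WT cultures of *Saccharomyces cerevisiae*, each strain with replicates A to C, grown to the log phase in rich medium (YPD) at 30 °C and collected after 2 h at 37 °C. In the mutant, made by CRISPR engineering, an Ala replaces the Cys at the editing site of ThrRS, the synthetase that loads Thr onto its tRNA and hydrolyses misacylated Ser-tRNA. Whether more than one clone of the mutant was grown is not given in the sources used here. Both strains derive from BY4741, a haploid of mating type a in which *HIS3*, *LEU2*, *MET17* and *URA3* are deleted in part or whole, so both need histidine from the medium.

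Histidine is built from phosphoribosyl pyrophosphate (PRPP) and ATP, in a linear pathway whose intermediate step also releases AICAR, an intermediate of purine synthesis. In yeast most of these genes are under general amino acid control, in which Gcn4, translated when the kinase Gcn2 phosphorylates eIF2α, binds short sites upstream of its target genes. Bas1, with Pho2, binds related sites upstream of purine genes and of *HIS4*. *HIS3* is a special case here. The allele of BY4741 is known to lack an internal piece of the coding sequence and to make no working enzyme, while its promoter remains. The values of *HIS3* are therefore read here as those of a remnant transcript, although the ends of the deletion were not checked in these data, which give 1 value per gene.

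The sites are shown because 6 of the 7 genes carry one in the 250 bases before the start codon and 1 gene does not. The search used TGACTC, a core shared by the Gcn4 and Bas1 sites, on both strands, and it also finds every TGACTCA, the full Gcn4 site. Each of the 8 windows below is read 5′ to 3′ on the coding strand of the gene from the RefSeq sequence of R64, with the core in capitals (GAGTCA where the core lies on the opposite strand), and the number is the position of the first base of the core from the start codon.
*HIS1*, -183, chrV:265951-265980, minus strand: aagcttccaagtGAGTCAcctctaccgttg
*HIS3*, -122, chrXV:721812-721841, plus strand: ccacctagcggaTGACTCtttttttttctt
*HIS4*, -243, chrIII:68559-68588, minus strand: tgactctaatagTGACTCcggtaaattagt
*HIS4*, -199, chrIII:68515-68544, minus strand: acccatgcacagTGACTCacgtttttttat
*HIS5*, -202, chrIX:142714-142743, plus strand: tcttggatctgtTGACTCacttcaattgat
*HIS6*, -94, chrIX:314897-314926, minus strand: gtctagtgtgcaGAGTCAtacggaataatt
*HIS7*, -230, chrII:716678-716707, minus strand: caaaaaaaaattGAGTCAtatcgtagcttt
*HIS7*, -144, chrII:716592-716621, minus strand: ttcatgagaaaaGAGTCAgacatcgaaaca

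The full TGACTCA was present in 4 of the 7 windows of 250 bases, those of *HIS1*, *HIS4* (the site at -199), *HIS5* and *HIS7* (the site at -230). Among 5978 protein-coding genes with the same coordinates in R64, 2.17% held TGACTCA and 6.26% held TGACTC in windows of this length. *HIS4* has another TGACTC at -255, just outside the window and seen in lower case in the flank of the site at -243. *HIS2* had no TGACTC within 500 bases. A match is a run of letters in the reference and says nothing about binding in these cells.

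The deposited unit was FPKM, in which fragments are divided by gene length and by the sample's total, and multiplying by gene length gave back whole fragments for 100% of the values. The genes of the table held 17806318 to 19114041 fragments in *ths1-C268A* samples and 16597937 to 17761143 in WT samples. Fragments outside these genes made up 10.6 to 13.4% of the FPKM denominator in *ths1-C268A* and 18.3 to 18.7% in WT. An equal total over protein-coding genes gave all genes a median log2 fold change of -0.115, against -0.0025 as deposited. Each of the 6 samples listed *LEU2*, *MET17* and *URA3* at 0. The summed level of 4 markers of mating type a was 2608 to 3624 FPKM in *ths1-C268A* and 1753 to 2315 FPKM in WT. Of these, *STE2* (339 and 264 FPKM) and *MFA1* (1702 and 941 FPKM) were called higher (adjusted p = 0.0165 and 0.00950 from limma). *MFA2* (833 and 744 FPKM) and *BAR1* (87.6 and 81.0 FPKM) did not pass. The summed level of 3 alpha markers was 30.1 to 37.1 FPKM in *ths1-C268A* and 36.0 to 44.2 FPKM in WT. Of these, *MF(ALPHA)1* was called lower at 0.158 FPKM in *ths1-C268A* and 3.96 FPKM in WT (adjusted p = 0.00970 from limma). That call rests on 1 to 2 fragments in *ths1-C268A* samples and 24 to 55 in WT samples. *MF(ALPHA)2* (29.3 and 30.9 FPKM) and *STE3* (5.07 and 5.19 FPKM) did not pass. The part of these differences in the results was not tested. The histidine genes had 673 (*HIS6*) to 15893 (*HIS4*) fragments in a sample, so that counting error was at most 3.85% of any value. The tests measure the spread between 3 cultures of a strain, which the paper calls biological replicates.

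In *ths1-C268A* relative to WT, 5 of the 7 histidine genes were higher, *HIS3*, *HIS4*, *HIS5*, *HIS7* and *HIS2*, and none was lower. *HIS1* and *HIS6* did not pass the test. The test was limma on log2(FPKM + 1) over the 6447 genes that averaged 1 FPKM or more, called at a Benjamini-Hochberg adjusted p under 0.05, and all 7 histidine genes met that filter. Over all genes tested, 14.2% were called higher and 12.1% lower, or 8.13 and 19.9% when protein-coding totals were made equal. The same 5 members had all 3 *ths1-C268A* values above all 3 WT values, which was so for 24.5% of all genes tested. The median log2 fold change of the 7 genes was 0.73. *HIS3*, *HIS4* and *HIS5* had log2 fold changes above 1, a size reached by 1.32% of the genes tested.

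**Figure D1:**
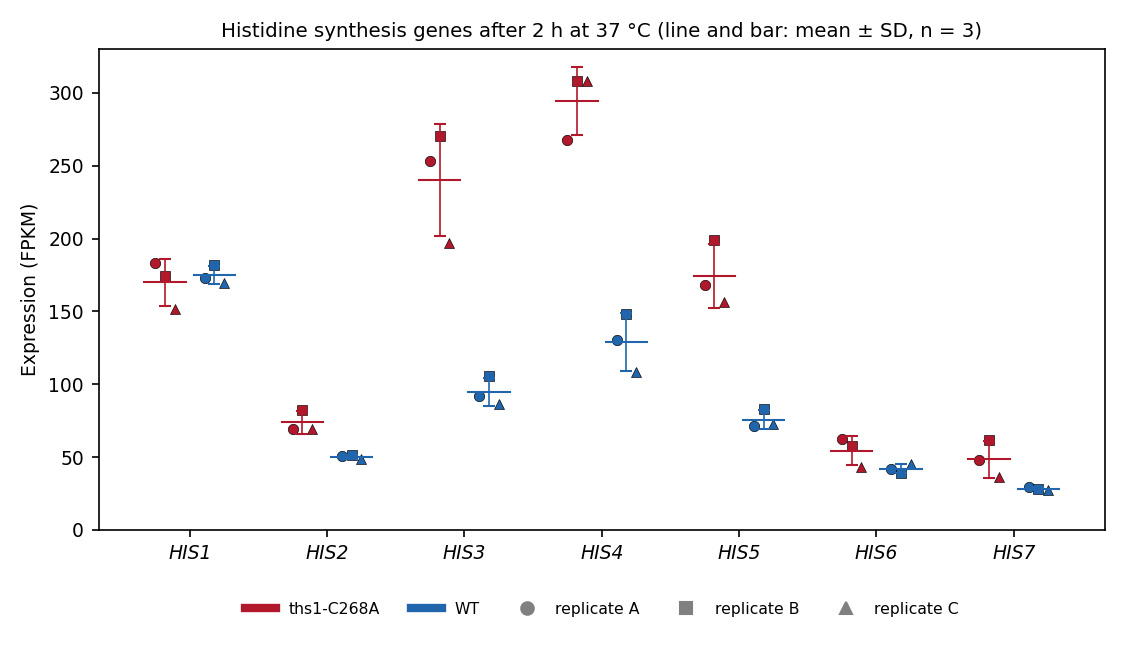
Expression (FPKM, linear axis) of the 7 histidine genes in each culture, *ths1-C268A* (red) left of WT (blue), with symbols for replicates and lines and bars for mean ± SD (n = 3). The red points of *HIS2*, *HIS3*, *HIS4*, *HIS5* and *HIS7* lie above all blue points of the same gene, whereas those of *HIS1* and *HIS6* overlap with WT.

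*HIS1* (YER055C, chromosome V, 264892 to 265785) encodes ATP phosphoribosyltransferase, which joins PRPP to ATP in the first step and is inhibited by histidine. It was 183, 174 and 152 FPKM in replicates A, B and C of *ths1-C268A*, against 173, 182 and 170 FPKM in WT. The groups overlapped, and the lowest value was that of *ths1-C268A* replicate C. The log2 fold change was -0.05 (standard error 0.09, 95% interval -0.26 to 0.17, adjusted p = 0.736 from limma). The interval leaves out the changes of *HIS3*, *HIS4* and *HIS5*, but not a small change in either direction. *HIS1* is thus the member whose upstream window holds a full TGACTCA and whose level did not differ detectably.

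*HIS4* (YCL030C, chromosome III, 65934 to 68333) is the longest member and encodes a multifunctional enzyme that acts in the second and the third step and in the last reactions, the oxidation of histidinol to histidine. It was 267.8, 308 and 308 FPKM in replicates A, B and C of *ths1-C268A*, against 131, 149 and 109 FPKM in WT. Every *ths1-C268A* sample was well above every WT sample, with a ratio of the means of 2.28. *HIS4* rose by 1.19 on the log2 scale (standard error 0.12, adjusted p = 7.21e-04 from limma).

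*HIS6* (YIL020C, chromosome IX, 314035 to 314820) encodes the isomerase of the fourth step. It was 62.6, 57.4 and 43.2 FPKM in replicates A, B and C of *ths1-C268A*, against 42.0, 39.2 and 45.0 FPKM in WT. Replicates A and B of *ths1-C268A* were above all WT samples, but replicate C was within their range. The log2 fold change was 0.35 (standard error 0.14, 95% interval 0.03 to 0.66), and it did not pass adjustment over all genes (adjusted p = 0.0924 from limma). Without *ths1-C268A* replicate C the log2 fold change was 0.50 and *HIS6* passed (adjusted p = 0.0149). It also passed when trends with gene length and GC content were removed, at 0.42 (adjusted p = 0.0357). In every fit that kept that replicate and made no such correction, *HIS6* did not pass. Its log2 fold change was 0.23 with protein-coding totals made equal (adjusted p = 0.240 from limma) and 0.24 with limma-voom (adjusted p = 0.241).

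*HIS7* (YBR248C, chromosome II, 714807 to 716465) encodes imidazole glycerol phosphate synthase, the glutamine-using enzyme that splits off AICAR for the purine pathway. It was 48.2, 61.4 and 36.1 FPKM in replicates A, B and C of *ths1-C268A*, against 29.4, 27.9 and 27.2 FPKM in WT. The groups did not overlap, but *ths1-C268A* samples spread more widely than those of any other member, with a coefficient of variation of 26.0%, against 4.08% in WT. *HIS7* rose by 0.73 on the log2 scale (standard error 0.17, adjusted p = 0.0175 from limma). The call was lost without WT replicate B (adjusted p = 0.0589) or WT replicate C (0.0628), with log2 fold changes of 0.73 and 0.71.

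*HIS5* (YIL116W, chromosome IX, 142928 to 144085) encodes the aminotransferase of the seventh step, which takes its amino group from glutamate. It was 168, 199 and 157 FPKM in replicates A, B and C of *ths1-C268A*, against 71.6, 82.9 and 72.4 FPKM in WT. The groups were far apart, with a ratio of the means of 2.31. *HIS5* rose by 1.19 on the log2 scale (standard error 0.11, adjusted p = 4.08e-04 from limma).

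*HIS2* (YFR025C, chromosome VI, 203743 to 204750) encodes histidinol phosphatase, the eighth step. It was 69.3, 82.5 and 69.3 FPKM in replicates A, B and C of *ths1-C268A*, against 50.6, 51.3 and 48.6 FPKM in WT. The WT samples lay close together, and all *ths1-C268A* samples lay above them. *HIS2* rose by 0.54 on the log2 scale (standard error 0.09, adjusted p = 0.00599 from limma). This is the member with no TGACTC within 500 bases upstream.

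The *HIS3* remnant (YOR202W, chromosome XV, 721946 to 722608 for the intact gene of R64) had the largest log2 fold change of the 7 genes. *HIS3* encodes the dehydratase of the sixth step in strains with the intact gene. It was 253, 271 and 197 FPKM in replicates A, B and C of *ths1-C268A*, against 91.9, 106 and 86.4 FPKM in WT. All *ths1-C268A* values were above all WT values, and replicate C was again the lowest. *HIS3* rose by 1.33 on the log2 scale (standard error 0.13, adjusted p = 6.06e-04 from limma). The FPKM of *HIS3* divide by the coding length of the intact gene, although the allele is known to lack a piece. Its level would thus be understated beside the other genes. The ratio between strains is not touched by this if both carry the same allele, which was not checked in these data.

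The genes beside the remnant gave a comparison within each sample that does not depend on the sample total. *MRM1*, which encodes a mitochondrial rRNA methyltransferase and is read away from *HIS3*, was 36.4, 37.0 and 39.1 FPKM in *ths1-C268A* and averaged 33.0 ± 2.28 FPKM in WT (SD, n = 3), and it did not pass the test (log2 fold change 0.18, adjusted p = 0.168 from limma). *DED1*, an RNA helicase gene downstream on the same strand, averaged 117 ± 3.39 FPKM in *ths1-C268A* and 102 ± 5.54 FPKM in WT (SD, n = 3 each) and did not pass either (log2 fold change 0.19, adjusted p = 0.104 from limma). Both neighbours nevertheless had all 3 *ths1-C268A* values above all 3 WT values, as did 24.5% of all genes tested. The log2 ratio of *HIS3* to *MRM1* was 2.80, 2.87 and 2.33 in replicates A, B and C of *ths1-C268A*, against 1.38, 1.78 and 1.40 in WT. Its difference of 1.15 had p = 0.1 in a two-sided exact permutation test, the smallest p that 3 samples against 3 allow. The log2 ratio of *HIS3* to *DED1* was 1.14, 1.23 and 0.71 in *ths1-C268A*, against -0.23, 0.13 and -0.25 in WT, a difference of 1.14 (exact permutation p = 0.1). Both ratios were thus higher in every *ths1-C268A* sample than in any WT sample.

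YOR203W, an open reading frame on the strand of *HIS3* that overlaps its end by 44 bp, was also higher in *ths1-C268A*. It was 8.99, 13.8 and 14.2 FPKM in replicates A, B and C of *ths1-C268A*, against 3.25, 4.92 and 2.08 FPKM in WT. These values rest on 69 to 108 fragments in *ths1-C268A* samples and 15 to 38 in WT samples. Within *ths1-C268A* its lowest value was that of replicate A, whereas that of *HIS3* was in replicate C. The groups did not overlap, and YOR203W rose by 1.62 on the log2 scale (standard error 0.28, adjusted p = 0.00613 from limma). Fragments of a *HIS3* transcript that runs past the end of the gene cannot be told apart from those of YOR203W in a table of genes. YOR203W (722565 to 722918) also overlaps the start of *DED1* (from 722911) on the same strand. The same limit thus holds for fragments of a *DED1* transcript that begins before its coding sequence.

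**Figure D2:**
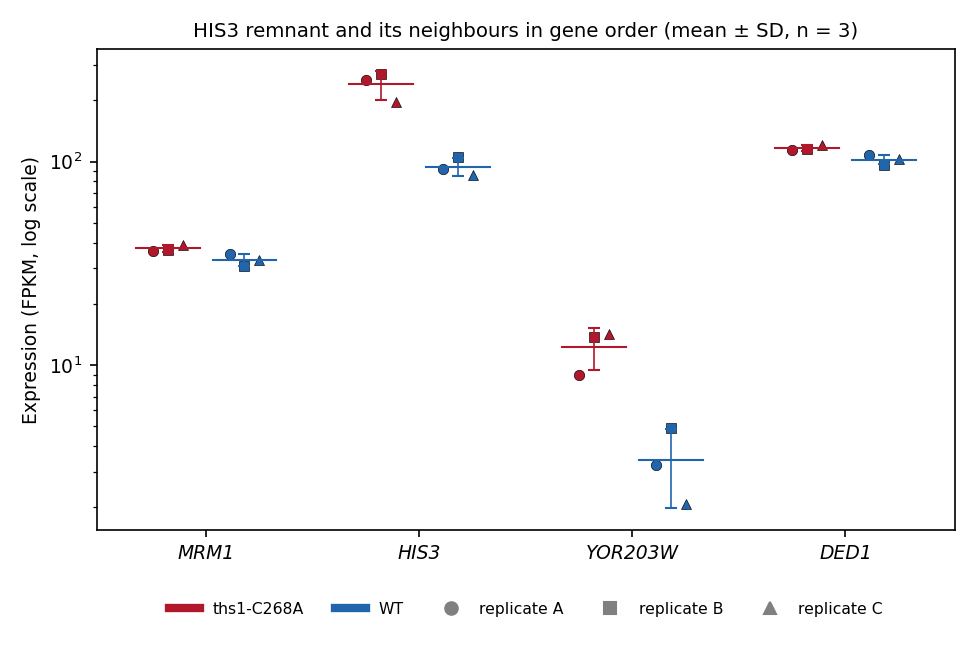
Expression (FPKM, log axis) of the *HIS3* remnant and of *MRM1*, YOR203W and *DED1* in their order on the chromosome, *ths1-C268A* (red) left of WT (blue), with symbols for replicates and lines and bars for mean ± SD (n = 3). Every gene shown is separated by strain, *HIS3* and YOR203W by log2 fold changes of 1.33 and 1.62, and *MRM1* and *DED1* by 0.18 and 0.19.

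The unequal changes altered the order of the 6 intact genes by FPKM, which divide by gene length. Fold change still rose with coding length across protein-coding genes (Spearman's rho 0.371). Neither this order nor the shares below were corrected for that. With trends in gene length and GC content removed, the log2 fold changes were 1.03 for *HIS4* and -0.02 for *HIS1*. In every WT sample *HIS1* was the highest, followed by *HIS4*, *HIS5*, *HIS2*, *HIS6* and *HIS7*. In every *ths1-C268A* sample *HIS4* was the highest and *HIS2* held the fourth place. *HIS1* and *HIS5* changed places among *ths1-C268A* replicates, as did *HIS6* and *HIS7*, so that neither pair had an order beyond the spread between samples.

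The summed FPKM of the 6 intact genes was 799, 883 and 765 in replicates A, B and C of *ths1-C268A*, against 497, 531 and 472 in WT, a ratio of the means of 1.63. Of this sum *HIS1* made up 23.0, 19.8 and 19.8% in *ths1-C268A*, against 34.8, 34.2 and 36.0% in WT. *HIS4* made up 33.5, 34.9 and 40.3% in *ths1-C268A*, against 26.3, 27.9 and 23.0% in WT. *HIS5* made up 21.3 ± 1.07% in *ths1-C268A* and 15.1 ± 0.63% in WT (SD, n = 3 each), and *HIS2* 9.03 ± 0.34% and 10.04 ± 0.34%. These 4 shares did not overlap between strains (two-sided exact permutation p = 0.1 each, and 0.15 after Benjamini-Hochberg adjustment over the 6 shares). At 3 samples against 3 no unadjusted p could go below 0.1. A share is relative to the other genes, and that of *HIS2* was lower although its level was higher. In recovered fragments, which weight each gene by its length, the difference of *HIS5* was 3.21 percentage points, against 6.22 in FPKM. The shares of *HIS6* (exact permutation p = 0.2) and *HIS7* (exact permutation p = 0.8) overlapped.

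**Figure D3:**
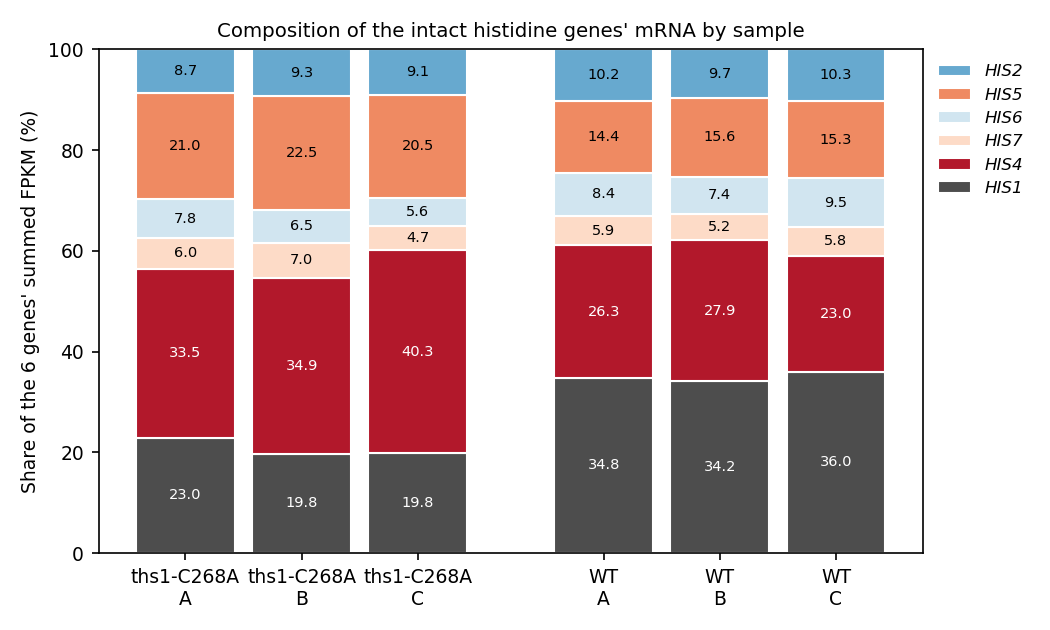
Share of each intact histidine gene in the summed FPKM of the 6 genes (percent, axis from 0) for each culture, with *ths1-C268A* on the left and WT on the right. The segment of *HIS1* takes 19.8 to 23.0% in *ths1-C268A* and 34.2 to 36.0% in WT, and that of *HIS4* 33.5 to 40.3% in *ths1-C268A* and 23.0 to 27.9% in WT.

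Ratios between members within a sample are given as a description, because the pairs were chosen after their values were seen. The log2 ratio of *HIS4* to *HIS5* was 0.67, 0.63 and 0.98 in replicates A, B and C of *ths1-C268A*, against 0.87, 0.84 and 0.59 in WT, so that the strain means differed by -0.0042. The log2 ratio of *HIS4* to *HIS1* was 0.55, 0.82 and 1.02 in *ths1-C268A*, against -0.41, -0.29 and -0.64 in WT. *HIS4* was thus above *HIS1* in every *ths1-C268A* sample and below it in every WT sample. The log2 ratio of the *HIS3* remnant to *HIS4* differed by 0.14 between the strains, with a mean of -0.31 ± 0.30 in *ths1-C268A* and -0.44 ± 0.10 in WT (SD, n = 3 each). With trends in gene length and GC content removed, the log2 fold changes of *HIS3*, *HIS5* and *HIS4* lay further apart, at 1.46, 1.18 and 1.03. The near equality of *HIS4* and *HIS5* thus holds for the values without that correction. The length and GC content used for *HIS3* were those of the intact gene.

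PRPP, the starting compound, is made by the *PRS1* to *PRS5* synthetases, with a median log2 fold change of 0.22. Of these, 2 of 5 were higher and none was lower, beside 14.2 and 12.1% of all genes tested. *PRS5* averaged 109 ± 10.2 FPKM in *ths1-C268A* and 82.1 ± 4.72 FPKM in WT (log2 fold change 0.40, adjusted p = 0.0176 from limma), and *PRS2* 124 ± 11.3 and 95.4 ± 2.30 FPKM (log2 fold change 0.37, adjusted p = 0.0191). *PRS5* lost its call without WT replicate B or C (adjusted p = 0.0707 to 0.0714 from limma), and *PRS2* without any 1 of the WT samples, with protein-coding totals made equal and with limma-voom (0.0595 to 0.0735).

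Purine synthesis shares both PRPP and AICAR with the histidine pathway. Of 10 *ADE* genes, 8 were higher and none was lower, beside 14.2 and 12.1% of all genes tested. Their median log2 fold change was 0.55. *ADE17*, which encodes an enzyme that takes AICAR on to IMP, was 258, 333 and 351 FPKM in replicates A, B and C of *ths1-C268A*, against a mean of 153 ± 16.9 FPKM in WT (SD, n = 3), and rose by 1.02 on the log2 scale (adjusted p = 0.00213 from limma). *ADE16*, its paralog for the same step, averaged 294 ± 17.8 FPKM in *ths1-C268A* and 334 ± 16.8 FPKM in WT (SD, n = 3 each) and did not pass (log2 fold change -0.19, adjusted p = 0.141), although it passed as lower in 3 of the alternatives, among them equal protein-coding totals (-0.31 to -0.30, adjusted p = 0.0311 to 0.0374). The 2 copies are alike in sequence and could exchange fragments. *ADE8*, which acts earlier in the pathway, had a log2 fold change of -0.33 and did not pass (adjusted p = 0.128 from limma), but passed as lower without *ths1-C268A* replicate A (adjusted p = 0.0123) and with limma-voom (0.0394). *ADE13*, whose enzyme makes AICAR in the purine pathway, rose by 0.54 (adjusted p = 0.00796), and *ADE4*, the first enzyme that draws PRPP into purines, by 0.88 (adjusted p = 0.00251). *ADE1* rose by 0.38 (adjusted p = 0.0350), a call lost in 10 of the alternatives (0.0534 to 0.119).

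Of 4 regulators, *BAS1* and *GCN4* were higher, beside 14.2% of all genes tested. *BAS1* was 70.5, 70.8 and 74.2 FPKM in replicates A, B and C of *ths1-C268A*, against a mean of 44.0 ± 1.31 FPKM in WT (SD, n = 3), and rose by 0.69 on the log2 scale (standard error 0.08, adjusted p = 9.52e-04 from limma). *GCN4* was 849, 1100.1 and 951 FPKM in *ths1-C268A*, against a mean of 707 ± 25.7 FPKM in WT (SD, n = 3), and rose by 0.44 (adjusted p = 0.0291). The call of *GCN4* was lost in 6 of the alternatives, among them each fit without 1 WT sample (adjusted p = 0.0524 to 0.119 over the 6). *PHO2* (log2 fold change 0.23, adjusted p = 0.169) and *GCN2* (0.21, adjusted p = 0.170) did not pass, and the value of *GCN2* was -0.057 with those trends in length and GC content removed. Levels of mRNA do not measure the translation of *GCN4* or the activity of Gcn2.

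Of 6 genes for the uptake and charging of histidine, 1 was higher and 1 was lower, close to the 14.2 and 12.1% of all genes tested, so that the counts say nothing particular of this list. *GAP1*, the general amino acid permease, was 220, 384 and 343 FPKM in replicates A, B and C of *ths1-C268A*, against a mean of 122 ± 14.9 FPKM in WT (SD, n = 3), and rose by 1.33 on the log2 scale (adjusted p = 0.00338 from limma). *TAT1*, a permease of several amino acids that also carries histidine with low affinity, averaged 129 ± 13.4 FPKM in *ths1-C268A* and 204 ± 4.95 FPKM in WT (SD, n = 3 each) and fell by 0.66 (adjusted p = 0.00294). *HIP1*, the high-affinity histidine permease, had a log2 fold change of 0.18 (adjusted p = 0.0973), and *HTS1*, the histidyl-tRNA synthetase gene, 0.28 (adjusted p = 0.0988). The vacuolar transporter genes *VBA1* (0.22) and *VBA2* (-0.14) did not pass.

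**Figure D4:**
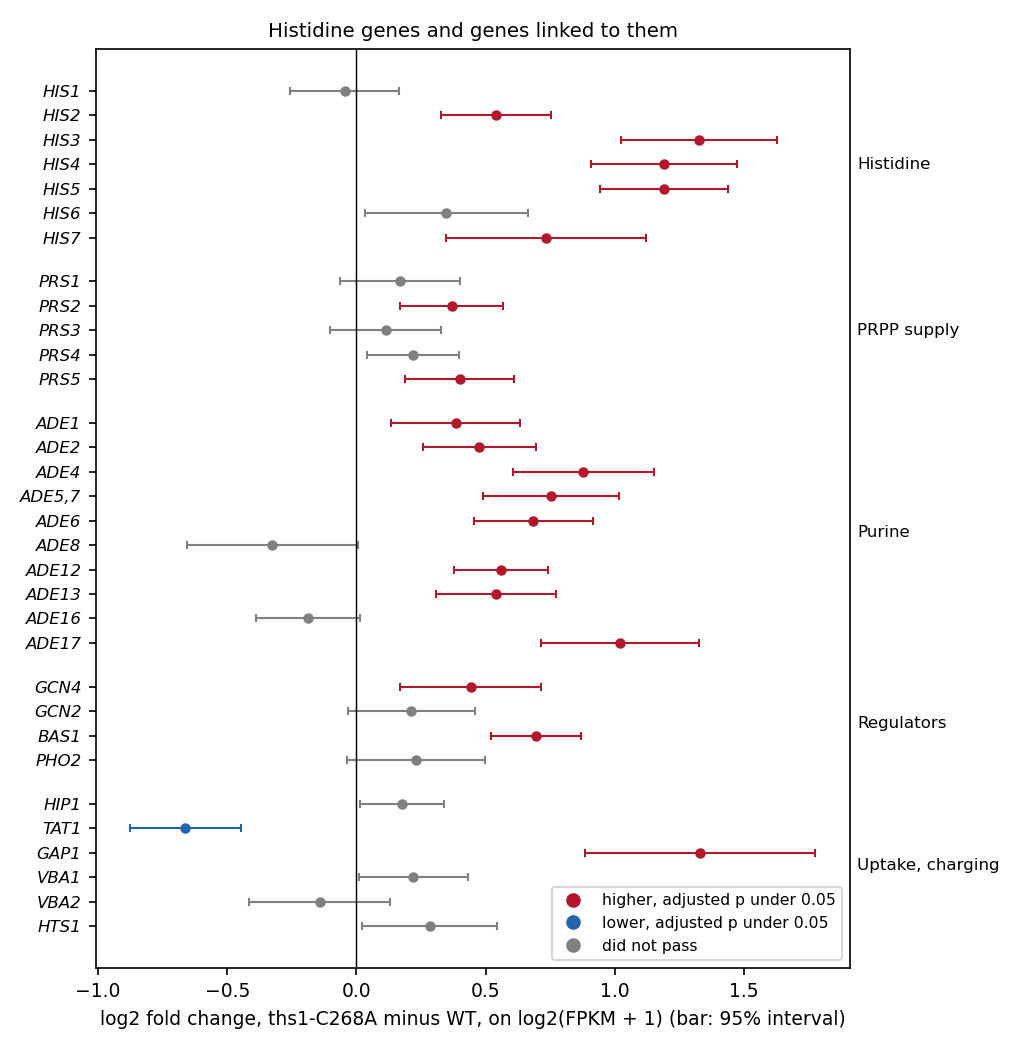
Log2 fold change, *ths1-C268A* minus WT on log2(FPKM + 1), for the 7 histidine genes and for genes of PRPP supply, purine synthesis, regulation, uptake and charging, with bars for 95% intervals and colour for the call at an adjusted p under 0.05. The histidine genes run between -0.05 (*HIS1*) and 1.33 (*HIS3*), the *ADE* genes between -0.33 and 1.02, and *TAT1* (-0.66) is the single gene in blue.

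Among other branches of amino acid synthesis, 9 of 9 arginine genes were higher (median log2 fold change 1.63), as were 7 of 7 lysine genes (0.97) and 4 of 5 tryptophan genes (0.76). The 6 intact histidine genes had 4 higher and a median of 0.64. Over all genes tested, 14.2% were called higher. The range within the histidine genes, -0.05 to 1.19 without *HIS3*, was close to that of the tryptophan genes, -0.07 (*TRP1*) to 1.20 (*TRP5*), while the lowest arginine gene was at 0.59 and the lowest lysine gene at 0.40. These lists are given side by side, and no difference between them was tested.

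The genes whose values over the 6 samples lay nearest to those of *HIS4*, by Euclidean distance in log2(FPKM + 1) relative to the WT mean, were YIL169C (distance 0.20), *MET16* (0.22), *ARO4* (0.29), *TRP5* (0.31) and *SHM2* (0.31). All 5 were higher in *ths1-C268A*, with log2 fold changes between 1.13 (*ARO4*) and 1.30 (*SHM2*). The choice by distance fixed this in advance, since a gene near *HIS4* must change about as *HIS4* did. Nearest to the *HIS3* remnant were *MAE1* (0.28), *HIS5* (0.31), *SAM1* (0.31), *RUF5-1* (0.31) and *PRM5* (0.33). *HIS5* was thus the member nearest to *HIS3*.

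Of these genes, 2 are also neighbours of a histidine gene on the chromosome. *ARO4*, which encodes an enzyme of the first step of aromatic amino acid synthesis, is the next gene upstream of *HIS7* on the same strand and averaged 458 ± 52.5 FPKM in *ths1-C268A* and 209 ± 27.6 FPKM in WT (SD, n = 3 each). *PRM5* is read away from *HIS5* on the other side of their shared upstream region and averaged 228 ± 40.6 FPKM in *ths1-C268A* and 85.1 ± 1.57 FPKM in WT (SD, n = 3 each). *PRM5* rose by 1.40 on the log2 scale, against 1.19 for *HIS5*. Apart from YOR203W, the overlap of another listed gene with a histidine gene was that of YIL020C-A with the end of *HIS6*, of 17 bp on the same strand, and YIL020C-A averaged 1.85 ± 0.59 FPKM in *ths1-C268A* and 4.65 ± 0.55 FPKM in WT (SD, n = 3 each).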

How the data were processed

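Total RNA of 3 *ths1-C268A* and 3 WT cultures was prepared with a Qiagen kit and sequenced by Novogene. The authors deposited FPKM per gene and sample. The submitters' processing notes name HISAT2. For the counting tool, annotation, strandedness and any poly(A) selection, the sources used here give nothing. Without strand, fragments of overlapping genes cannot be told apart. All 7 members had the coordinates of R64.

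Strains were compared with limma 3.58.1 in R 4.3.3 on log2(FPKM + 1), two-sided, with a trend of variance on mean and strain as the only term. Fold changes are on that scale, which understates those of low genes. Single shares and ratios had exact permutation tests in scipy 1.17.1. Scripts were tested on simulated data, where limma made 203 calls at an adjusted p under 0.05, of which 17 were false. Fragments were recovered by dividing FPKM times length by its smallest step (tolerance 0.01). The members and lists were chosen with earlier results of these data known, and named genes were all members and listed genes, other synthesis branches by counts, and the 5 genes nearest to *HIS4* and to *HIS3*. Alternatives were pseudocounts of 0.1 and 5, no filter or 10 FPKM, 2 rescalings, protein-coding genes only, no trend, limma-voom, a replicate block, loess correction for length and GC content (span 0.5), both together, each sample left out, and an adjusted p under 0.01.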

Additional observations from a re-analysis of the deposited data

How the results depend on the processing

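Of the 5 histidine genes called higher, *HIS2*, *HIS3*, *HIS4* and *HIS5* kept their call in every fit, and 4 passed an adjusted p of 0.01. With each sample left out in turn, log2 fold changes ran from -0.10 to 0.033 for *HIS1* (0.033 without *ths1-C268A* replicate C, where its direction changed), 0.24 to 0.50 for *HIS6* and 0.55 to 0.93 for *HIS7*. *HIS6* passed at 0.42 with the length and GC correction, alone (adjusted p = 0.0357 from limma) or with the replicate block (0.0489), and the cause was not tested. Across 6176 protein-coding genes fold change rose with coding length (Spearman's rho 0.371, across genes, which are not independent replicates). After that correction *HIS4*, the longest member, was at 1.03 and *HIS3*, the shortest, at 1.46. For *HIS3* the correction used the length and GC content of the intact gene, whose 49.0% GC is the highest of the members. The share of *HIS7*, 0.26 percentage points higher in *ths1-C268A*, was -0.50 in fragments and ran from -0.27 to 0.85 with samples left out. *PRS3* was at -0.0034 with an equal total and -0.0022 with limma-voom, and *GCN2* at -0.057 with the length and GC correction, with and without the block. *PRS4*, *PHO2*, *VBA1* and *HTS1*, which were not called, each passed as higher in 1 alternative (adjusted p = 0.0354 to 0.0419).

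Samples of both strains share the letters A to C, and whether the letters mark a pairing is not given in the sources used here. Deviations of same-letter samples correlated at -0.232, 0.0618 and -0.0115, and those of different letters at -0.205 to 0.209. With 3 samples a strain these values cannot decide whether the letters mark shared batches. With the replicate block 5 histidine genes were called higher, and over all genes 683 were higher and 593 lower, against 916 and 783. *ADE1* lost its call with it (adjusted p = 0.0534). Over all genes, 524 were higher and 1285 lower with an equal total, 613 and 1388 with limma-voom, and 356 to 456 and 290 to 394 without 1 WT sample. Leaving out *ths1-C268A* replicate A, B or C gave 1088 and 1057, 601 and 527, or 785 and 650. TGACTCA was in 4 members' windows at 250 and, in an alternative chosen after seeing the data, at 500 bases.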
